A study of Mus musculus with 16 samples.

Results

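The 10 genes described here, *Tnnt2*, *Acta2*, *Tagln*, *Tagln2*, *Cnn1*, *Cnn2*, *Myl9*, *Tpm1*, *Tpm2* and *Cald1*, encode proteins of the contractile actin and myosin filaments. Some of them are widely used as smooth-muscle genes, whereas *Tnnt2* codes for a troponin T, a protein of striated muscle. They were taken by symbol from the 56748 genes of an RNA-Seq count table of mouse TM4 cells, an established cell line of Sertoli cell origin. The list was chosen by symbol with the levels and fold changes of these same comparisons already known, so every count of called genes among the 10 describes these samples and supports nothing further. All cells carried a pcDNA3.1-type plasmid delivered with Lipofectamine. The plasmid held no *gdf6Y* (empty vector, EV, 6 samples), *gdf6Y* (5 samples) or the mutant variant *gdf6Y* del9 (del9, 5 samples). Each well received 2.5 µg of plasmid 24 h after seeding, and RNA was taken 24 h after transfection. *Gdf6Y* is the sex-determining gene of the turquoise killifish and codes for a ligand of the bone morphogenetic protein (BMP) family, so its own transcript is not among the mouse genes counted. Nothing in the labels ties the samples of a group to separate cultures, so the p-values measure the spread between these samples, which may be technical.

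In smooth muscle and in non-muscle stress fibers, myosin motors pull on actin filaments. Actin is coated by tropomyosin, and caldesmon and calponin bind the filament and restrain the motor. Phosphorylation of the regulatory light chain of myosin switches the motor on. Transgelins cross-link actin, and troponin T ties the troponin complex to tropomyosin in striated muscle. Many of these genes are known targets of the serum response factor (SRF), which binds the CArG box together with cofactors of the myocardin family. In the testis, Acta2 protein marks the peritubular myoid cells that surround the tubules, whereas Sertoli cells lie inside them.

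Promoter sequences are shown for *Tnnt2*, *Tagln2*, *Cnn2* and *Myl9* because they hold the letters of a known muscle element: the CArG box, or CATTCC, the core of the M-CAT element that was described in the troponin T promoter. They come from RefSeq on GRCm38.p6, which is not the build of the counts. Windows from 250 bases before to 50 bases after the start were searched on both strands, and 9 of the 10 genes had an entry (all but *Tagln*). Capitals mark the match, and the neighbouring sequence is in lower case.
Tnnt2 (chr1:135836214-135836333, plus strand, bases -120 to -1): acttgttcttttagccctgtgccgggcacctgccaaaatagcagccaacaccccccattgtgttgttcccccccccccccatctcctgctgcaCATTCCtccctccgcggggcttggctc
Tagln2 (chr1:172500106-172500225, plus strand, bases -140 to -21): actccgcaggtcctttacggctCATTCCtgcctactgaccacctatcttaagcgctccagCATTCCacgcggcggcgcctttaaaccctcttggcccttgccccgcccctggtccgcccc
Cnn2 (chr10:79988480-79988599, plus strand, bases -120 to -1): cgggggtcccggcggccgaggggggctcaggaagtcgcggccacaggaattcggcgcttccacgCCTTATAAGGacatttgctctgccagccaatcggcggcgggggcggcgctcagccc
Myl9 (chr2:156775244-156775363, plus strand, bases -220 to -101): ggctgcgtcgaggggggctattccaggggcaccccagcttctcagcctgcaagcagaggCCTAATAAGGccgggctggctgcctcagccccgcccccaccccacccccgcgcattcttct

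The CArG box was searched as the exact letters CCWWWWWWGG, with W for A or T. It was found in 2 of the 9 genes, *Cnn2* and *Myl9*, or 2 of the 11 windows of the 9 genes. Over all 32851 windows it was found in 1.63%. Boxes with another letter in them, or outside the windows, were not searched for. A gene without a match here may therefore still have a CArG box. CATTCC was found in 5 of the 9 genes (*Tnnt2*, *Tagln2*, *Acta2*, *Tpm1* and *Cald1*), in 5 of their 11 windows, and in 14.7% of all windows. *Tnnt2* and *Cald1* had 2 windows each, of which not both held CATTCC. In *Tagln2* it occurred at 2 positions of the plus strand. These matches are a description of the letters in the windows.

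Most of the listed genes were among the abundant transcripts of TM4 cells, whereas *Tnnt2* and *Cnn1* were scarce. Levels are compared between genes as RPKM, the reads per kb of exon scaled to a common library size, with all annotated exons of a gene joined. With EV the calponin gene *Cnn2* had an RPKM of 138 ± 5.25 (SD, n = 6) and the transgelin gene *Tagln2* 134 ± 5.28, and the samples of this pair overlapped. *Tpm1*, which codes for a tropomyosin, followed with 111 ± 4.99. *Tagln* had 81.6 ± 1.03 and *Cald1*, which codes for caldesmon, 79.4 ± 0.511, again with overlapping samples. The smooth-muscle actin gene *Acta2* reached 57.0 ± 1.05, the tropomyosin gene *Tpm2* 27.7 ± 0.372 and the regulatory light chain gene *Myl9* 21.0 ± 0.492, each separated from its neighbours. The level then dropped 21.3 times to *Tnnt2*, with 0.984 ± 0.0599, and a further 2.08 times to *Cnn1*, with 0.474 ± 0.0623. Over all 16 samples the percentile among expressed genes was 98.9 for *Tagln2*, 89.1 for *Myl9*, 41.7 for *Tnnt2* and 34.5 for *Cnn1*. Genes with many isoforms, such as *Cald1* with 13571 exonic bases and *Tnnt2* with 8923, get a low value on this scale, since no transcript holds all of their exons. Together the 10 genes took 0.325% to 0.340% of the counted reads with EV, 0.333% to 0.350% with *gdf6Y* and 0.332% to 0.343% with del9, so the groups overlapped.

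**Figure D1:**
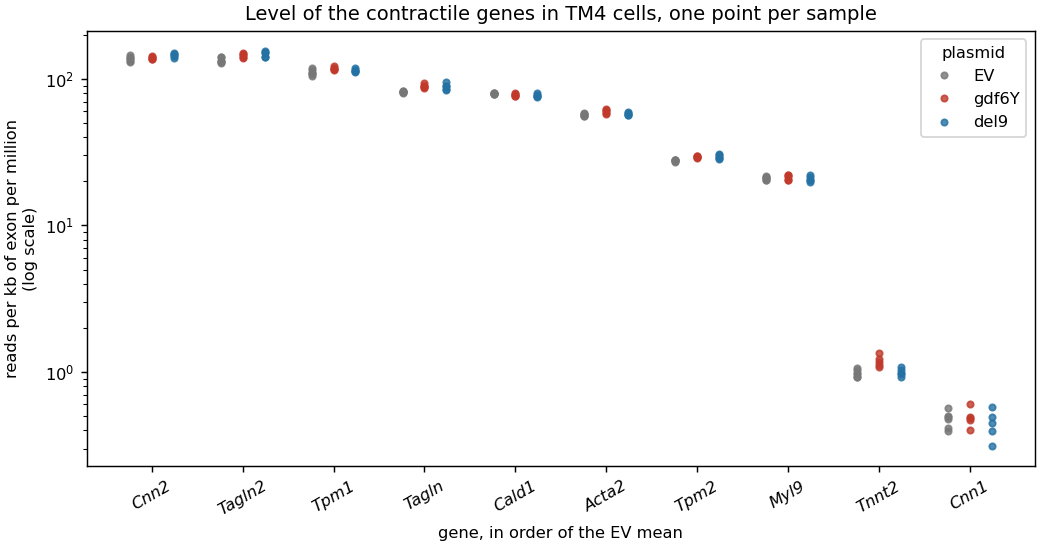
Level of each of the 10 genes as RPKM on a log axis, with 1 point per sample and the genes in the order of their mean with EV. *Myl9*, with a mean of 21.0 with EV, is the lowest of the abundant genes, while *Tnnt2* (0.984) and *Cnn1* (0.474) lie far below it, and the 3 groups of a gene lie close together on this scale.

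The abundance of *Acta2* and the transgelins was not accompanied by the most restricted smooth-muscle genes. *Myh11*, the smooth-muscle myosin heavy chain gene, had at most 3 reads in any sample, *Lmod1* 2 to 5 and *Myocd*, the gene of the cofactor myocardin, at most 1. *Des*, which codes for desmin, had 32 to 62 reads. By contrast *Smtn* had 2426 to 2991 reads, *Actg2* 601 to 772 and *Mylk*, the gene of the kinase of the regulatory light chain, 492 to 739. *Srf* (1945 to 2750 reads) and its cofactors *Mrtfa* (1685 to 2122) and *Mrtfb* (620 to 925) were all counted. *Pdlim3* had no read in any of the 16 samples, which allows up to 3 expected reads over the 16 libraries together. Such intervals and limits cover counting error only.

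The striated-muscle partners of troponin T were mostly near 0. Of 20 striated-muscle genes, 18 had at most 10 reads in every sample. Among the partners of *Tnnt2* in the troponin complex, the inhibitory subunit genes *Tnni1*, *Tnni2* and *Tnni3* had at most 5, 2 and 4 reads. The calcium-binding subunit gene *Tnnc1* had 77 to 129 reads, an RPKM over all samples of 3.78 against 1.05 for *Tnnt2*, and *Tnnc2* had at most 3 reads. The other troponin T genes *Tnnt1* and *Tnnt3* reached 4 and 5 reads. No read was counted on *Actc1*, *Myl2*, *Myl3*, *Myod1* or *Myog*.

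The non-muscle relatives of the 10 genes gave the larger part of most families. Over all samples *Actb* had an RPKM of 1339 and *Actg1* 307, against 58.3 for *Acta2* and 12.3 for *Actg2*. The tropomyosin gene *Tpm4* had 272 and *Tpm3* 44.0, against 114 for *Tpm1* and 28.8 for *Tpm2*. The light chain genes *Myl6* and *Myl12a* had 82.8 and 30.7, against 21.0 for *Myl9*. In the calponin family the listed gene *Cnn2* had 141, above *Cnn3* with 77.9, and both lay far above the listed gene *Cnn1* with 0.470. *Tagln3* was nearly silent (0.00190), as was *Acta1* (0.0334). Because uniquely mapped reads were counted, reads in stretches that actins, tropomyosins or light chains share almost letter for letter are missing, and the split within these families is uncertain to that extent.

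Sertoli and muscle-type markers were measured to place the cells. *Gata4* had 656 to 872 reads per sample and *Sox9* 34 to 54, while *Wt1* had none. Of 9 Sertoli cell genes, 4 had at most 10 reads in every sample, *Wt1* among them. The summed normalized count of these 9 Sertoli cell genes was 1674 to 1766 with EV, 1489 to 1613 with *gdf6Y* and 1567 to 1729 with del9. *Gata4* and *Kitl*, with EV means of 831 and 707, made up most of this sum. Of these 9, *Gata4* alone was called, in 1 comparison, and fell with *gdf6Y* against EV (log2FC -0.20, adjusted p = 1e-04, edgeR). The summed normalized count of 8 peritubular myoid and pericyte genes was 343 to 424 with EV, 306 to 400 with *gdf6Y* and 284 to 365 with del9. Most of it came from *Pdgfrb*, which fell with del9 (log2FC -0.25, adjusted p = 0.00256, edgeR). Of the 8 genes, 5 had at most 10 reads in every sample, among them *Myh11*, and *Kcnj8* had none. The part of these markers in the results for the contractile genes was not tested. In these whole-culture samples, a change in the share of a cell type and a change in the RNA per cell cannot be told apart.

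*Gdf6Y* was compared with EV to see what the ligand changed. Of the 10 genes, 4 rose (*Tnnt2*, *Tagln*, *Tagln2* and *Tpm1*), by 6.20% to 20.8%, and the other 6 did not pass the test. Counts were compared by the quasi-likelihood test of edgeR, p-values were adjusted over all 26316 genes tested (Benjamini-Hochberg), and a gene was called at an adjusted p-value below 0.05. The background was 5.08% of genes called, 1.70% higher and 3.38% lower. Among genes averaging 100 counts or more, to which all of the 10 but *Cnn1* belong, 12.9% were called and 4.29% were called higher. The median log2 fold change (log2FC) of the 10 genes was 0.08, and that of all genes averaging 10 counts or more was 0.0008. None of the 10 was called lower, none had an unadjusted p-value below 0.05 in that direction, and DESeq2 called none lower either. In the higher direction 6 of the 10 had an unadjusted p-value below 0.05 (edgeR), and DESeq2 called 6 higher.

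*Tnnt2*, the troponin T gene, changed most. Its normalized counts (counts scaled to the average TMM-corrected library) were 202 to 235 with EV (median 214, n = 6), while the 5 *gdf6Y* samples had 268, 258, 294, 238 and 245. Every *gdf6Y* sample lay above every EV sample, which held in this direction for 1.26% of all genes tested. The means were 216 ± 13.2 (SD, n = 6) and 261 ± 22.2 (SD, n = 5), a log2FC of 0.27 ± 0.07 (SE), with an adjusted p-value of 0.00197 (edgeR). The 95% interval of the log2FC was 0.14 to 0.40. The call held in all 9 other settings tried and without each of the 11 samples in turn, where the log2FC lay between 0.22 and 0.31. With del9 the counts were 212, 228, 238, 217 and 205, which overlaps the EV range almost fully. The log2FC of del9 against EV was 0.02 ± 0.07, with an interval from -0.11 to 0.16 and an adjusted p-value of 0.883 (edgeR).

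*Tagln* and *Tagln2*, which code for the actin cross-linking transgelins, rose with both plasmids. *Tagln* had 4022 to 4179.9 normalized counts with EV (median 4112). The *gdf6Y* samples had 4393, 4511, 4723, 4417 and 4498, and the del9 samples 4215, 4478, 4826, 4292 and 4477. No sample of either plasmid reached down into the EV range; for del9, 2.17% of the genes tested were separated from EV in this way. The log2FC against EV was 0.14 ± 0.03 (SE) for *gdf6Y* (adjusted p = 0.000141, edgeR) and 0.12 ± 0.03 for del9 (adjusted p = 0.000484). *Gdf6Y* and del9 themselves overlapped, with a log2FC between them of 0.02 (95% interval -0.04 to 0.08).

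*Tagln2* had 10888 to 11989.8 normalized counts with EV (median 11266). Its *gdf6Y* samples had 11758, 12532, 12368, 12019 and 12737, and its del9 samples 11948, 13019.7, 12845, 12031 and 13197. One sample of each plasmid, replicate 1 in both, lay inside the EV range and the other 4 above it. The log2FC was 0.11 ± 0.03 (SE) for *gdf6Y* (adjusted p = 0.00129, edgeR) and 0.15 ± 0.02 for del9 (adjusted p = 4.28e-07). The difference between *gdf6Y* and del9 was -0.03 (95% interval -0.09 to 0.02). Leaving out any single sample kept all 4 of these transgelin calls.

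The actin gene *Acta2* was measured at 4404 to 4636 normalized counts with EV (median 4550.0). The *gdf6Y* samples had 4778, 4606, 4985, 4684 and 4881, of which replicate 2 lay inside the EV range. The log2FC was 0.08 ± 0.03 (SE) and was not called (adjusted p = 0.0654, edgeR), although it was called in 4 of 9 other settings and when *gdf6Y* replicate 1 (0.0369), 2 (0.0263) or 4 (0.0324) was left out. With del9 the counts were 4682, 4533, 4752, 4484 and 4599.9, and the log2FC against EV was 0.03 ± 0.03 (adjusted p = 0.556). *Actg1*, cytoplasmic gamma actin, had means of 21623 ± 876, 23186 ± 690 and 23581 ± 386 with EV, *gdf6Y* and del9 (SD, n = 6, 5 and 5), and rose with both plasmids (adjusted p = 0.00142 and 6.94e-06, edgeR). Its log2FC was 0.10 and 0.13.

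The tropomyosins that line the filament differed between the genes. *Tpm1* had 20889.6 to 23554 normalized counts with EV (median 21835). With *gdf6Y* it had 22854, 23609.7, 23202, 23209 and 24350.4, all above the EV median but only 2 above the EV maximum. Its log2FC of 0.09 ± 0.02 (SE) passed the test (adjusted p = 0.012, edgeR). The call was lost without EV replicate 3 (adjusted p = 0.077), EV replicate 4 (0.0565) or *gdf6Y* replicate 5 (0.114), with the log2FC at 0.07 or more throughout, and with either stricter filter on low counts (0.0618 and 0.0588). With del9 *Tpm1* had 22938, 23440.4, 22656, 22167 and 22685 (log2FC 0.05, adjusted p = 0.284).

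*Tpm2* showed the reverse order of calls at nearly equal sizes. Its EV samples had 2833 to 2932 normalized counts (median 2906), its *gdf6Y* samples 3065, 3065, 3091, 3022 and 3132, and its del9 samples 3161, 3064, 3189, 2951 and 3008. Both plasmids lay wholly above EV. The log2FC was 0.09 ± 0.03 (SE) in each, with an adjusted p-value of 0.0519 for *gdf6Y* and 0.0251 for del9 (edgeR), on either side of the threshold. Between *gdf6Y* and del9 it was 0.01 (95% interval -0.06 to 0.07). *Tpm2* was therefore called for del9 and not for *gdf6Y*, although it was called for *gdf6Y* in 6 of 9 other settings and for del9 in 5 of 9. Leaving out EV replicate 1 (adjusted p = 0.0439, edgeR) or *gdf6Y* replicate 1 (0.0319) or 4 (0.0324) gave the call for *gdf6Y*. Leaving out EV replicate 4 (0.063) or 6 (0.0722) or del9 replicate 1 (0.0859) or 3 (0.121) removed it for del9.

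The filament-binding regulators and the light chain changed least with *gdf6Y*. *Cnn2* had 7973 to 8846 normalized counts with EV (median 8417) and 8269, 8533, 8494, 8318 and 8681 with *gdf6Y*, wholly inside the EV range (log2FC 0.01, 95% interval -0.04 to 0.07). With del9 it had 8496, 8829.5, 8938, 8737 and 9202, of which 2 lay above the EV maximum, and its log2FC of 0.08 ± 0.03 (SE) passed the test (adjusted p = 0.0277, edgeR). That call was made in only 2 of 9 other settings. It was lost without EV replicate 1 (0.102), 3 (0.131) or 6 (0.0616) and without del9 replicate 3 (0.0678) or 5 (0.197). *Cald1* had 26382 to 26793 with EV, 25431 to 26939.9 with *gdf6Y* and 25214 to 26730.1 with del9, and its log2FC was -0.02 and -0.04 (adjusted p = 0.621 and 0.404).

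*Myl9*, the regulatory light chain gene of smooth-muscle and non-muscle myosin, had 1150.2 to 1221 normalized counts with EV. It had 1149 to 1250.1 with *gdf6Y* and 1116 to 1242 with del9, and the 3 groups overlapped (log2FC 0.02 and -0.01, adjusted p = 0.776 and 0.908, edgeR). *Cnn1*, the calponin of differentiated smooth muscle, was counted at 22 to 41 reads per sample. Its log2FC of 0.04 for *gdf6Y* had a 95% interval from -0.30 to 0.38 and that of -0.09 for del9 one from -0.43 to 0.25, so a change of the size seen for *Tnnt2* was not detectable at this depth.

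**Figure D2:**
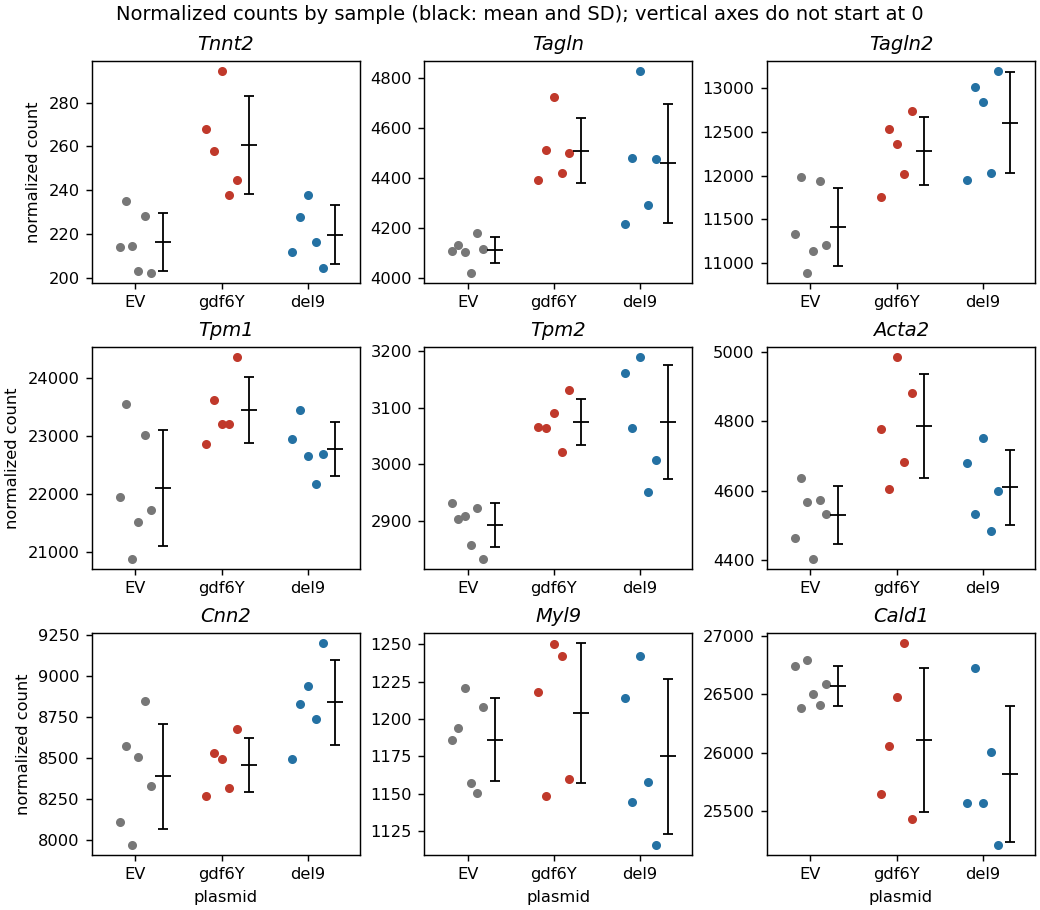
Normalized counts of 9 of the 10 genes (without *Cnn1*) in every sample with EV (6 points), *gdf6Y* (5 points) and del9 (5 points), with the mean and SD in black. The vertical axes do not start at 0. Every *gdf6Y* sample of *Tnnt2*, *Tagln* and *Tpm2* lies above every EV sample, and every del9 sample of *Tagln* and *Tpm2* does.

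Del9 was compared with EV to see what the mutant variant changed, using the same EV samples. Of the 10 genes, 4 rose (*Tagln*, *Tagln2*, *Cnn2* and *Tpm2*), by 5.59% to 10.7%. The background was 9.25% of 26226 genes called, 4.82% higher and 4.43% lower, with 21.7% called and 12.3% higher among genes averaging 100 counts or more. The median log2FC of the 10 genes was 0.04, against 0.005 for all genes averaging 10 counts or more. None was called lower by edgeR or DESeq2, and none had an unadjusted p-value below 0.05 in that direction. DESeq2 called 3 of the 10 higher. Of all calls, 1263 were higher and 1162 lower, but 863 higher and 1492 lower when libraries were scaled by total counts. With that scaling 2 of the 10 genes were called higher. The number was also 2 without EV replicate 6 or without del9 replicate 3.

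*Gdf6Y* was set against del9 to separate it from its mutant variant. Only *Tnnt2* was called of the 10 genes, and it was higher with *gdf6Y* by 19.2%. Here 1.01% of 25878 genes were called, 0.599% higher and 0.410% lower, with 1.96% and 0.932% among genes averaging 100 counts or more. The log2FC of *Tnnt2* was 0.25 ± 0.07 (SE), with a 95% interval of 0.12 to 0.39 and an adjusted p-value of 0.0304 (edgeR). The groups met at 238 normalized counts, the value of both *gdf6Y* replicate 4 and del9 replicate 3. The call is fragile. It was lost with DESeq2 (adjusted p = 0.182) and with either stricter filter on low counts (0.142 and 0.145). It was also lost without *gdf6Y* replicate 1 (0.0639) or 3 (0.251) and without del9 replicate 1 (0.0567), 2 (0.0522), 4 (0.0715) or 5 (0.154), with the log2FC between 0.20 and 0.28.

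For the other 9 genes the log2FC of *gdf6Y* against del9 lay between -0.06 (*Cnn2*) and 0.13 (*Cnn1*). Without *Cnn1*, the 95% intervals of these genes ran from -0.12 at the lowest (*Cnn2*) to 0.12 at the highest (*Acta2*). None of the 10 was called lower, by edgeR or by DESeq2, and none had an unadjusted p-value below 0.05 in that direction. The 3 comparisons share their control samples in pairs, so their values for a gene stand side by side and do not count as separate evidence.

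**Figure D3:**
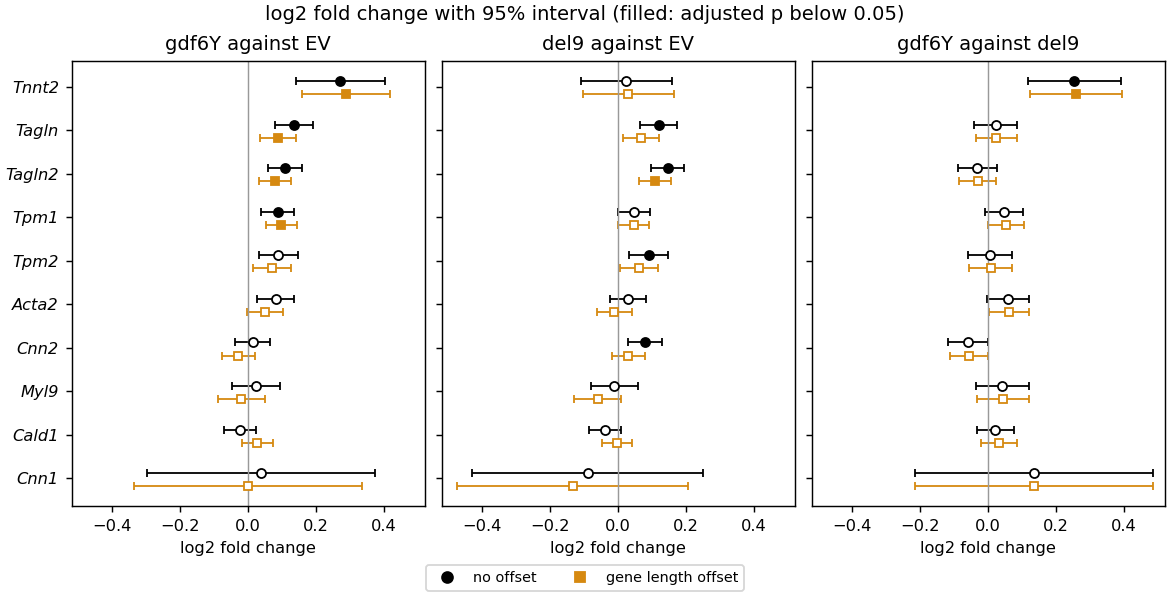
The log2FC of the 10 genes with its 95% interval in the 3 comparisons, as fitted (black) and with an offset for gene length (orange), with filled symbols for an adjusted p-value below 0.05. *Tnnt2* is filled in both comparisons of *gdf6Y* and open for del9 against EV, and with the offset only *Tagln2* stays filled for del9 against EV.

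Gene length moved with the fold changes against EV and is given here beside them. Across 10070 genes averaging 100 counts or more, the Spearman correlation between log2FC and exonic length was -0.400 for *gdf6Y*, -0.336 for del9 and -0.0510 for *gdf6Y* against del9, with genes of a sample sharing 1 library. The median log2FC against EV was 0.04 among genes of up to 4463 exonic bases and -0.04 among genes of 9693 or more for *gdf6Y*, and 0.05 and -0.03 for del9. *Tagln*, *Cnn2*, *Tagln2* and *Tpm2*, with 2044, 2468, 3455 and 4237 exonic bases, belong to the short genes. So do *Myl9*, *Cnn1* and *Acta2*, with 2293, 2736 and 3227. In the edgeR fit of all samples without offset or block, these 3 were called in no comparison. *Acta2* was called for *gdf6Y* against EV in 4 of 9 other settings and in 3 of 11 fits with a sample left out. *Tpm1* (8077 bases) and *Tnnt2* (8923 bases) are longer than the median gene of 6703 bases. With an offset fitted to length, the 4 calls of *gdf6Y* against EV remained, with *Tagln* at 0.09 (adjusted p = 0.0327, edgeR) and *Tnnt2* at 0.29 (0.00086). Of the 4 calls of del9 against EV, *Tagln2* remained (0.11, adjusted p = 0.000223), whereas *Tagln* (0.07, 0.11), *Cnn2* (0.03, 0.539) and *Tpm2* (0.06, 0.199) no longer passed. *Tnnt2* against del9 also remained (0.26, 0.0208).

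Among the other genes of the contractile system, the paralogs of the 10 genes were called only higher. By edgeR the same held against EV for the regulators of myosin or actin. The smooth-muscle list and the lists of SRF with its cofactors and of their targets had calls in both directions over the comparisons against EV. Of 14 paralogs of the 10 genes, 2 rose with *gdf6Y* (*Actg1* and *Myl6*) and 4 rose with del9 (*Actg1*, *Myl6*, *Tpm3* and *Cnn3*). None of them fell with either plasmid by edgeR or DESeq2, and none had an unadjusted p-value below 0.05 in that direction. The 9 paralogs averaging 10 counts or more had a median log2FC of 0.07 for *gdf6Y* and 0.06 for del9, against 0.08 and 0.04 for the 10 genes. *Myl6*, the essential light chain gene of non-muscle myosin, had means of 6315 ± 171, 6778 ± 214 and 6851 ± 129 normalized counts with EV, *gdf6Y* and del9 (SD, n = 6, 5 and 5; adjusted p = 0.00439 and 0.000168, edgeR). *Tpm3* had 8583 ± 221 with EV and 9080 ± 232 with del9 (adjusted p = 0.0147). With the length offset neither *Actg1* (adjusted p = 0.0728) nor *Myl6* (0.0861) was called for *gdf6Y*, and 3 of the 4 remained for del9.

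Of 16 other smooth-muscle genes, 1 rose and 1 fell with *gdf6Y*, and 1 rose and 2 fell with del9. To set beside this and the other lists, 5.08% of all genes tested were called with *gdf6Y* and 9.25% with del9. Among genes averaging 100 counts or more, these shares were 12.9% and 21.7%. *Csrp2*, a LIM-domain protein gene of smooth muscle, rose with *gdf6Y* (log2FC 0.17, adjusted p = 0.0285, edgeR), and *Ppp1r12b*, a targeting subunit gene of myosin phosphatase, fell with it (-0.13, 0.0082). With del9 *Csrp1* rose (0.12, 0.00516), while *Mylk*, whose product phosphorylates the regulatory light chain, fell (-0.21, 0.000213) together with *Ppp1r12b* (-0.12, 0.00867). *Mylk* had 575 to 706 normalized counts with EV and 502 to 605 with del9. The median log2FC of the 11 genes of this list averaging 10 counts or more was 0.03 for *gdf6Y* and 0.04 for del9. With the length offset both calls of *gdf6Y* were lost, and *Mylk* alone remained for del9.

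Among the 4 genes of SRF and its cofactors, *Mrtfb* fell with both plasmids, from an EV mean of 866 ± 30.4 normalized counts to 765 ± 64.6 for *gdf6Y* and 795 ± 22.7 for del9 (SD, n = 6, 5 and 5; adjusted p = 0.00103 and 0.0336, edgeR). With the length offset it was called with neither (0.0634 and 0.258). *Srf* rose with del9 (log2FC 0.14, adjusted p = 0.000129) and had a log2FC of 0.09 with *gdf6Y* (0.0539). Of 13 further SRF and cofactor targets, 4 fell with *gdf6Y* and none rose (DESeq2 called 5 lower and 0 higher, and 2 were higher at an unadjusted p-value below 0.05). They were *Myh9* (-0.15, adjusted p = 4.87e-08) and *Myh10* (-0.12, 0.000337), which code for non-muscle myosin heavy chains, *Vcl* (-0.11, 0.000556), which codes for the adhesion protein vinculin, and *Flna* (-0.11, 0.000711), which codes for the actin cross-linker filamin A. All 4 remained called with the length offset. With del9 3 of the 13 rose, *Egr1* (0.18, 4.71e-05), *Zyx* (0.11, 0.000352) and *Trim47*, and 2 fell, *Pdlim5* (-0.13, 0.000114) and *Myh9*. For del9 DESeq2 called 1 higher and 1 lower, and with the length offset *Egr1* and *Zyx* remained higher and *Pdlim5* lower.

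Of 14 regulator genes of myosin or actin, among them small GTPases, kinases, phosphatases and cofilins, 1 rose with *gdf6Y* and 4 rose with del9. DESeq2 called 3 higher and 2 lower with *gdf6Y*, and 4 higher and 4 lower with del9. *Ppp1r14b*, an inhibitor gene of myosin phosphatase, rose with both, from an EV mean of 3106 ± 138 normalized counts to 3478 ± 146 for *gdf6Y* and 3591 ± 177 for del9 (SD, n = 6, 5 and 5; adjusted p = 3.62e-06 and 2.85e-11, edgeR). *Rhob* (log2FC 0.12, adjusted p = 0.000168) and *Rhoc* (0.11, 0.00152), which code for small GTPases, rose with del9, as did *Cfl1*. With the length offset *Ppp1r14b* and *Rhoc* were called higher with del9 and *Cfl2* lower, while *Rhob* was not called (0.07, 0.0513). *Rhob* was the only gene of these lists called between *gdf6Y* and del9 in the fit without a replicate block, apart from *Tnnt2* and the BMP genes below. It was lower with *gdf6Y* (-0.15, 0.000686), a call that DESeq2 did not make. None of the 20 striated-muscle genes was called in any comparison by edgeR or DESeq2, and 1 had an unadjusted p-value below 0.05, lower with *gdf6Y* than with EV. Their summed normalized count was 104 to 131 with EV, 96.2 to 135 with *gdf6Y* and 106.7 to 131 with del9.

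The 6 direct BMP response genes listed for scale all rose with *gdf6Y* against both EV and del9. *Id1* rose by 0.90 on the log2 scale against EV and by 0.65 against del9, and 2 of the 6 rose with del9 against EV. The largest change among the contractile genes, 0.27 for *Tnnt2*, was thus smaller than the change of *Id1* in the same samples.

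The genes whose level followed *Tnnt2* most closely over the 16 samples were *Gse1* (Pearson r = 0.907), *Smad7* (0.869) and *Id1* (0.816), out of 11470 genes averaging 1 CPM or more. For *Acta2* they were *Mettl5* (0.808), *Ndufb7* (0.799) and *Cwc27* (0.783). These values describe 16 samples in 3 groups that share scaling factors, and they include the differences between the groups. With the group means removed, 19 of the 45 pairs of the 10 genes had a correlation below 0. Among these were all pairs with *Cnn1*, which had only 22 to 41 reads per sample. The highest values were 0.827 for *Tagln2* with *Cnn2* and 0.769 for *Tagln2* with *Tpm1*, and the lowest were -0.630 for *Acta2* with *Cnn1* and -0.561 for *Cnn2* with *Myl9*.

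In GRCm39, the build of the counts, *Tnnt2* lies on chromosome 1 at 135763738-135780315 on the plus strand and *Tagln2* on the same chromosome and strand at 172327426-172334947. *Tagln* (chromosome 9, 45840909-45847404) and *Tpm1* (chromosome 9, 66929870-66956953) lie on the minus strand. *Acta2* lies on chromosome 19 at 34217737-34232990 on the minus strand, *Cnn2* on chromosome 10 at 79824410-79831896 on the plus strand and *Tpm2* on chromosome 4 at 43514697-43524949 on the minus strand. The counts cover the exons of each gene as a whole, so the isoforms of the tropomyosins, of caldesmon and of troponin T are not told apart.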

How the data were processed

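TM4 RNA-Seq data of 16 samples were analysed. The authors made strand-specific libraries with unique molecular identifiers from poly(A) RNA, aligned reads with STAR 2.7.10a to GRCm39, collapsed duplicates by identifier with UMI-tools and counted uniquely mapped reads with featureCounts 2.0.3 (versions as in the submitters' processing notes). Counts were deposited as raw whole numbers per gene. Each sample had 21486850 to 26444903 counted reads. Groups came from the labels. GENCODE gene models on GRCm39 gave symbols, positions and exonic lengths for 56017 of 56748 identifiers.

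Genes with a count of at least 1 in any compared sample were tested in R 4.3.3 with edgeR 4.0.16 (TMM scaling, quasi-likelihood test, 2 groups per model, no covariates, threshold 0.05 on the adjusted p-value). Standard errors are the log2 fold change over the square root of F, and intervals are normal 95% intervals. The steps were tested on simulated data. The alternatives were DESeq2 1.42.0, other scalings, stricter filters, a joint model of the 3 groups, a block for replicate number, a gene length offset and leaving out each sample. The 10 genes and all other lists were chosen with earlier results of these data known. All 10 were named, and of each other list up to 3 called genes per comparison by smallest adjusted p-value and those without reads. *Cnn3*, *Flna*, *Trim47*, *Cfl1* and *Cfl2*, further called genes of their lists, were added after their values were seen. The Leydig cell genes had summed normalized counts of 19.3 to 35.8 and the germ cell genes of 0 to 4.29 per sample, and *Hsd3b1* had no read.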

Additional observations from a re-analysis of the deposited data

How the results depend on the processing

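The 30 log2 fold changes of the 10 genes (3 comparisons) were recomputed in 9 other settings and without each sample in turn: of these values, 520 kept direction and side of the threshold, 35 lost and 17 gained a call, and 18 changed sign, none of them called. With the length offset the sign changed for *gdf6Y* against EV in *Cnn1* (-0.000744), *Cnn2* (-0.029), *Myl9* (-0.021) and *Cald1* (0.027) and for del9 against EV in *Acta2* (-0.012). With block and offset together it changed in *Cnn2* (-0.032), *Myl9* (-0.018) and *Cald1* (0.031), and for del9 in *Acta2* (-0.013) and *Cald1* (9.48e-05). With a sample left out it changed within ranges of -0.039 to 0.106 for *Cnn1* in *gdf6Y* against EV, -0.014 to 0.015 for *Tpm2* in *gdf6Y* against del9, and -0.204 to 0.013 for *Cnn1*, -0.003749 to 0.047 for *Tnnt2* and -0.031 to 0.004521 for *Myl9* in del9 against EV.

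For *gdf6Y* against EV, 1338 genes were called, and 794 to 1751 with a sample left out (794 without *gdf6Y* replicate 5); 3 to 6 of the 10 genes were then higher. For *gdf6Y* against del9, 261 genes were called, but 45 with filterByExpr, 44 with at least 10 counts in every sample and 81 with DESeq2, each with 0 of the 10 genes. With a sample left out, 160 (without del9 replicate 2) to 441 (without del9 replicate 1) were called, and 0 to 1 of the 10. For del9 against EV, 2425 genes were called (1692 to 2715 with a sample left out) and 4 of the 10 genes (2 to 4). That number was 2 with total counts, 2 with all 3 groups in one model, 1 with the length offset and 2 with block and offset. The causes were not tested.

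Groups share replicate numbers, but over 12584 genes averaging 10 counts or more the deviations of same-numbered samples correlated by more than 0.1 in 4, 4 and 2 of 5 pairs (-0.000296 to 0.191, 0.0943 to 0.161 and -0.0348 to 0.160 for *gdf6Y* against EV, *gdf6Y* against del9 and del9 against EV), so the numbers were not taken as pairs. Over 10075 genes averaging 100 counts or more it was 5, 5 and 4 of 5, and 3, 4 and 1 of the 5 samples correlated best with their own number. With the replicate block 2061 genes were called for *gdf6Y* against EV (821 higher, 1240 lower) with 6 of the 10 genes higher (*Acta2* and *Tpm2* added). For *gdf6Y* against del9 the block gave 661 calls (289 higher, 372 lower, against 155 and 106 without it) with *Tnnt2* and, among the 13 SRF and cofactor targets, 4 lower (*Flna*, adjusted p = 3.15e-05, *Zyx*, 0.000985, *Myh9*, 0.0158, and *Vcl*, 0.039), of which none was called without the block (0 of the 13 by edgeR or DESeq2, 5 lower at an unadjusted p-value below 0.05). It gave 639 calls and 2 of the 10 (*Tpm1* added) together with the offset. For del9 against EV it left 4 of the 10. Depth limits *Cnn1* most, with 22 to 41 reads per sample.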
